A study of Mus musculus with 2 samples.

Results

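Ccl21a, Mmrn1, Prox1, Lyve1, Reln and Ccr7, 6 of the 27999 genes listed in the libraries, were followed in dissociated lungs of female FVB/NJ mice with metastases grown from the Met-1 line of mouse mammary carcinoma. The genes were chosen by their names in a rule drawn up with values of these libraries known, so their levels and ratios are given as a description. Met-1 cells were injected into the tail vein at 10 weeks of age in both groups, with no further treatment and no uninjected control. A library was made per time point, each from 1 animal: week 1 gave the low burden lung and week 3 the high burden lung, both under the same batch label. Time after injection, burden and mouse cannot be told apart. Cells that held unique molecular identifiers (UMIs) of Ccl21a and of Mmrn1 or Prox1 are called co-detected. The rule found 58 such cells among 2473 kept low burden cells and 5 among 3033 kept high burden cells.

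Lymphatic vessels drain fluid and cells from the lung to the lymph nodes, and they also offer tumor cells a route out of the tissue. Prox1 is the transcription factor that sets and keeps lymphatic endothelial identity. Ccl21a encodes the chemokine that lymphatic vessels display, and Ccr7 is its receptor on migrating dendritic cells and on naive and memory lymphocytes. Mmrn1 encodes a secreted multimerin and Reln the secreted glycoprotein reelin, both made by lymphatic endothelium. Lyve1 is a hyaluronan receptor of lymphatic vessels that some blood vessels and tissue macrophages also carry.

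The low burden library was the shallower, with 13283386 UMIs in kept cells and a median of 4073 per cell, against 51467856 and a median of 13998 in the high burden library. Metastatic-like clusters held 1400 high burden cells (46.2%) and no low burden cell, and endothelial-like clusters held 486 low burden cells (19.7%) and 133 high burden cells (4.39%). Endothelial-like clusters carried all 12 of the listed endothelial markers. Clusters c11 and c21 did so too, but they also carried markers of other classes, were called mixed and are not in the endothelial-like values. Values are given as UMIs per 1000000 UMIs of the summed cells (CPM), and brackets hold exact 95% intervals that cover counting error only. With 1 library per group no difference between libraries was tested.

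In GENCODE M21 (GRCm38, the assembly of mm10) Ccl21a lies at chr4:42772860-42773993 on the minus strand, Mmrn1 at chr6:60924976-60989378 on the plus strand and Prox1 at chr1:190118035-190170714 on the minus strand. Reln lies at chr5:21884454-22344702, Lyve1 at chr7:110850607-110863239 and Ccr7 at chr11:99144196-99155077, all on the minus strand, and all 6 are protein coding. Ccl21a sits in a cluster of near-identical copies on chromosome 4, so that reads can be split between copies. The gene lists hold 2 identifiers with the symbol Ccl21a, and all Ccl21a UMIs lay on ENSMUSG00000094686. The copy Gm21541 (chr4:41903610-41904743) held 40 UMIs in kept low burden cells and 5 in kept high burden cells, beside 17136 and 1925 of Ccl21a, and the entries named Ccl21b, Ccl21c, Gm13304 and Gm10591 held 0. The annotated transcripts of Ccl21a and Gm21541 are both 870 bases long and differ at 6 positions, counted from the transcript's 5′ end with the base of Ccl21a first: G24A, T159A, C269T, C640T, T812C and G856A. Bases 249 to 289 are printed to show how little separates the copies in the coding part, with the difference at base 269 in capitals.
Ccl21a: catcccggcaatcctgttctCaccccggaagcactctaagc
Gm21541: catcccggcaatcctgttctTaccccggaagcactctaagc

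The 250 bases before the RefSeq start (GRCm38.p6, C57BL/6J sequence, not that of FVB/NJ) are shown for the 4 genes that were found together in the same cells, because they bear on what these genes share. RefSeq windows were matched for 4 of the 6 genes. Capitals mark matches to any of 5 motifs on either strand. The ETS motif was searched as AGGAAG, which 29.5% of 32851 windows of the same length held. The SOX motif was searched as AACAAT and was held by 9.42% of windows. The GATA motif, searched as AGATAA, was held by 9.99%, and the TATA box, searched as TATAAA, by 12.4%. The GC box was searched as GGGCGG and was held by 32.7%. The windows lie at chr4:42773992-42774241 (minus strand) for Ccl21a, chr6:60944067-60944316 (plus) for Mmrn1, chr5:22344706-22344955 (minus) for Reln and chr1:190170828-190171077 (minus) for Prox1.
Ccl21a: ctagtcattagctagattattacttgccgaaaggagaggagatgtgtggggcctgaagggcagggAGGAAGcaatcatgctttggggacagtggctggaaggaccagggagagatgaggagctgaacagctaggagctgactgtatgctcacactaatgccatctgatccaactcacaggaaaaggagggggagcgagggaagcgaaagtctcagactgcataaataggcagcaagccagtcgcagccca
Mmrn1: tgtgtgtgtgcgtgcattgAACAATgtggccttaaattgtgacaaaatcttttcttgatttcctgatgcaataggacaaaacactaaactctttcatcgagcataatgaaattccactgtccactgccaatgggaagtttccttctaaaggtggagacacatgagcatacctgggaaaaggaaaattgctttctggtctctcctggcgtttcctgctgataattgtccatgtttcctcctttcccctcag
Reln: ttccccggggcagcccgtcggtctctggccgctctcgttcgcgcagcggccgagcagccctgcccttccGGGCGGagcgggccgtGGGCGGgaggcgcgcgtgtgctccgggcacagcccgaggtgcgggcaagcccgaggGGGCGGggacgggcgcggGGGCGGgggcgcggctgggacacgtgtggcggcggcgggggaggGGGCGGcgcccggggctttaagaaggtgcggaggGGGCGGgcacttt
Prox1: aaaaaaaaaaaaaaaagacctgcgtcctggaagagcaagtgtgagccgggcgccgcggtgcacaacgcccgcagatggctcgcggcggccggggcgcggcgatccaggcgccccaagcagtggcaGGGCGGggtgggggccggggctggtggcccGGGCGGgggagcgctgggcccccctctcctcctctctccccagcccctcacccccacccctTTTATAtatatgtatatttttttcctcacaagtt
No searched motif was present in all 4 windows. Ccl21a held 1 match to the ETS motif and Mmrn1 1 match to the SOX motif. Reln held 6 GC boxes in a window of 80.0% G and C, and Prox1 held 2 GC boxes and 1 TATA box match on the opposite strand at 64.8%, against a median of 52.4% over all windows and 52.8% and 42.4% for Ccl21a and Mmrn1. The RefSeq start of Mmrn1 lies 19341 bases from the start of the GENCODE gene, and 2 RefSeq starts are listed for Prox1, of which the one nearer to the GENCODE start is shown.

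Summed over all kept cells, UMIs of all 6 genes made up a smaller share of the high burden library. Ccl21a fell from 1290 CPM (17136 UMIs) to 37.4 CPM (1925 UMIs), a log2 ratio of high over low burden of -5.11 [-5.18, -5.04]. Mmrn1 was at 33.8 CPM (449 UMIs) and 0.505 CPM (26 UMIs), a log2 ratio of -6.06 [-6.69, -5.49]. Reln was at 9.33 CPM (124 UMIs) and 0.194 CPM (10 UMIs), a log2 ratio of -5.59 [-6.68, -4.66]. These 3 genes encode secreted products. Prox1 was at 6.62 CPM (88 UMIs) and 0.330 CPM (17 UMIs), a log2 ratio of -4.33 [-5.17, -3.57], whose interval overlapped those of Ccl21a and Reln. Lyve1 was at 56.9 CPM (756 UMIs) and 6.86 CPM (353 UMIs), a log2 ratio of -3.05 [-3.24, -2.87]. Ccr7 was at 44.9 CPM (597 UMIs) and 8.69 CPM (447 UMIs), a log2 ratio of -2.37 [-2.55, -2.19]. The 2 genes that other cell classes also make had the ratios nearest to 0. The high burden sums leaned on 1 cell: without the cell with most UMIs of the gene in each library, the log2 ratio was -5.76 for Ccl21a and -7.03 for Reln. In such sums fewer cells of a type and less RNA per cell cannot be told apart.

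All 6 genes were at least 2-fold lower at high burden, beside 29.5% of the 14935 genes with at least 20 UMIs. The rule was drawn up with these ratios known, and nothing is read from that count. The median log2 ratio over all these genes was -0.32. Without metastatic-like cells the log2 ratios were -3.99 for Ccl21a, -5.12 for Mmrn1, -4.11 for Reln, -3.24 for Prox1, -1.69 for Lyve1 and -1.46 for Ccr7, beside 21.6% of genes at least 2-fold lower. Within endothelial-like cells they were -3.07 for Ccl21a, -4.40 for Mmrn1, -3.23 for Reln, -3.00 for Prox1 and -1.37 for Lyve1, beside 10.7% of genes. The Ccr7 ratio there was -0.91 with an interval that held 0, from 25 and 9 UMIs. Blood endothelial genes moved in the same sums: all 15 of that list, which includes Pecam1 (-2.80) and Cdh5 (-2.92), were at least 2-fold lower over all kept cells, and 4 of 15 within endothelial-like cells, and their part in the ratios of the 6 genes was not tested.

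**Figure D1:**
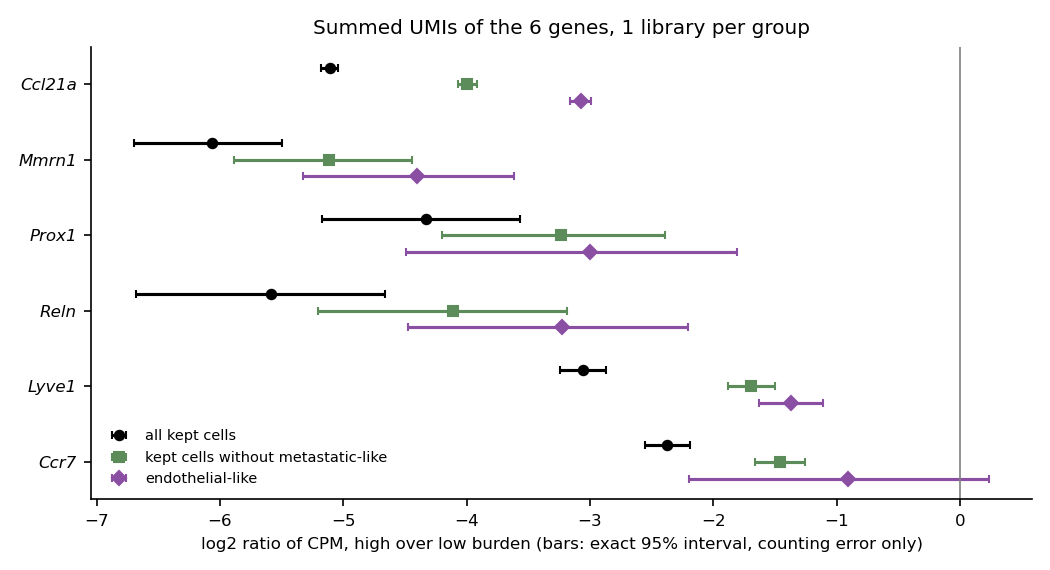
The log2 ratio of CPM of high over low burden (horizontal axis) is plotted for the 6 genes (rows) in all kept cells (circles), without metastatic-like cells (squares) and in endothelial-like cells (diamonds), with bars for exact 95% intervals. All points lie to the left of 0, with Mmrn1 furthest at -6.06 and Ccr7 in endothelial-like cells nearest at -0.91.

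Cells with both Ccl21a and Mmrn1 or Prox1 made up 2.35% [1.79, 3.02] of low burden cells and 0.165% [0.0535, 0.384] of high burden cells. Of endothelial-like and co-detected cells together, they were 11.3% [8.68, 14.3] (58 of 514) and 3.68% [1.20, 8.37] (5 of 136). These shares count 28 low burden and 3 high burden co-detected cells that lay outside endothelial-like clusters. The co-detected cells fell into 2 kinds by their Ccl21a UMIs. In the low burden library 28 cells held 43 to 2113 Ccl21a UMIs, and in the high burden library 2 cells held 380 and 851. These cells, taken at a minimum of 10 UMIs, are called Ccl21a-rich below. The lowest values inside were 43 and 72 UMIs, while the highest among all other low burden cells were 11 and 10, in cells of 49222 and 32157 UMIs that held neither Mmrn1 nor Prox1. In the high burden library the highest values outside were 5 and 4. The remaining 30 low burden and 3 high burden co-detected cells held 1 to 7 and 1 Ccl21a UMIs, respectively. None of the co-detected cells was marked as a doublet by Scrublet, which marked few cells in all, and none shared a barcode with the other library.

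**Figure D2:**
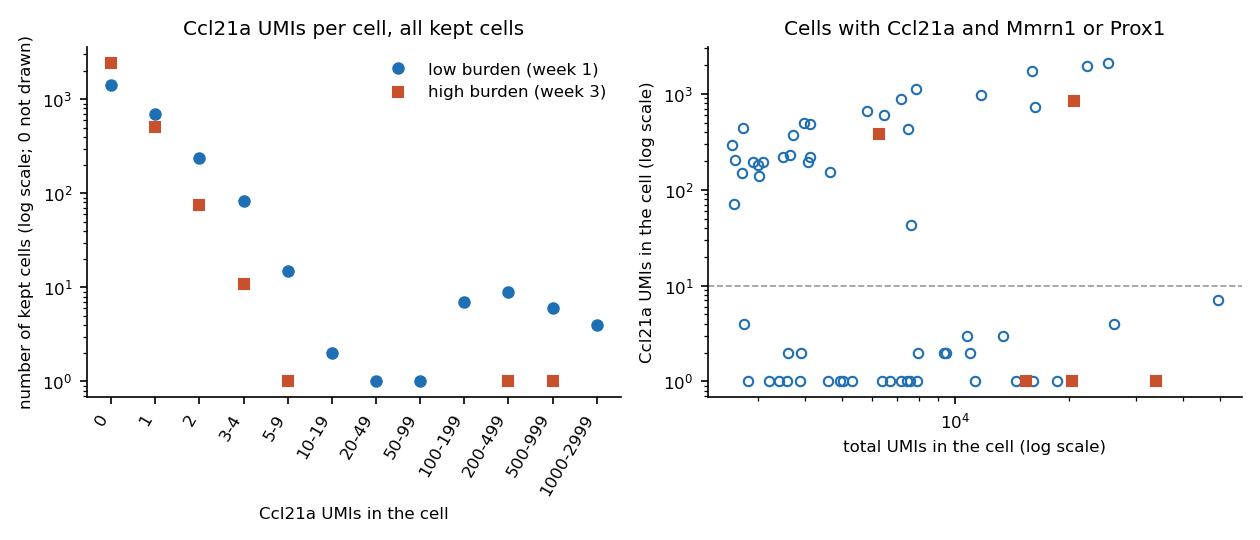
The left panel gives the number of kept cells (log axis, empty bins not drawn) by Ccl21a UMIs in the cell, and the right panel the Ccl21a UMIs of each co-detected cell against its total UMIs (both log axes), with low burden as circles, high burden as squares and a dashed line at 10 UMIs. The 28 low burden and 2 high burden Ccl21a-rich cells stand at 43 UMIs and above, apart from cells with 11 or fewer.

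The Ccl21a-rich cells were 1.13% [0.754, 1.63] of low burden cells and 0.0659% [0.00799, 0.238] of high burden cells. Of the 28 low burden cells 25 lay in endothelial-like cluster c13, and 1 each in an alveolar macrophage-like, an epithelial-like and a mixed cluster, and both high burden cells lay in c13. The members had been left out of the clustering. The 28 cells held 1.44% of the low burden library's UMIs but 90.9% of its Ccl21a UMIs, 92.7% of Mmrn1, 88.7% of Reln and 79.5% of Prox1. They held 19.0% of Lyve1 and 0.335% of Ccr7. In the high burden library the 2 cells held 63.9% of Ccl21a, 50.0% of Mmrn1, 80.0% of Reln and 35.3% of Prox1, from 10 to 26 UMIs of the last 3 genes. Ccl21a, Mmrn1 and Prox1 chose these cells, so their shares are a description. Reln was not used to pick the cells, but it was chosen for this report with values of these libraries known. Most Lyve1 and Ccr7 UMIs lay in other cells in both libraries, as did 11 of the 17 high burden Prox1 UMIs.

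In single Ccl21a-rich cells of the low burden library Ccl21a ran from 5639 to 162723 CPM with a median of 72413. Mmrn1 was present in all 28 cells, with a lowest value of 287, a median of 1681 and a highest of 6002 CPM. Every one of these cells thus carried Mmrn1, although Prox1 would also have met the rule. Reln had UMIs in 24 of the 28 cells, with a median of 473 and a highest value of 1095 CPM. Prox1 had UMIs in 19 cells, with a median of 277 and a highest value of 2334 CPM. Lyve1 had UMIs in 21 cells, with a median of 424 and a highest value of 2773 CPM, and Ccr7 in 1. Neither Reln nor Lyve1 was used to pick the cells, but both are among the 6 genes chosen with values of these libraries known. The 2 high burden cells, of 20631 and 6267 UMIs, held 851 and 380 UMIs of Ccl21a, 7 and 6 of Mmrn1, 3 and 3 of Prox1, 7 and 1 of Reln and 17 and 6 of Lyve1, and no Ccr7. Summed over the Ccl21a-rich cells, Ccl21a was at 81506 and 45766 CPM (log2 ratio -0.83), Mmrn1 at 2176 and 483 CPM (-2.17 [-3.09, -1.38]), Prox1 at 366 and 223 CPM (-0.72 [-2.21, 0.48]), Reln at 575 and 297 CPM (-0.95 [-2.20, 0.08]) and Lyve1 at 753 and 855 CPM (0.18 [-0.52, 0.82]). In the high burden library these sums rest on 2 cells. The intervals of Prox1, Reln and Lyve1 held 0. None of the intervals covers the spread between cells. Singly, the 2 high burden cells had Ccl21a at 41249 and 60635 CPM and Mmrn1 at 339 and 957 CPM. Both genes thus lay inside the range of the single low burden cells, and no difference per cell is read from these sums.

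Genes of lymphatic endothelium that the rule did not use were also high in the Ccl21a-rich cells. Of 21 genes on the lymphatic marker list, 18 had at least 20 UMIs in these and the other endothelial-like cells of the low burden library, and 14 of them were at least 2-fold higher in the Ccl21a-rich cells, beside 9.11% of all 8962 genes compared. The 21 genes had been listed with results of these data known. Flt4, the receptor of the lymphatic growth factors VEGF-C and VEGF-D, was at 717 CPM with UMIs in 25 of 28 cells, against 36.7 CPM in 456 other endothelial-like cells (log2 ratio 4.29). Maf, a transcription factor, was at 806 against 5.48 CPM (7.20), with UMIs in 26 cells. Fxyd6, a regulator of the sodium pump, was at 1193 against 12.2 CPM (6.61) and was the list's only gene with UMIs in all 28 cells. Pdpn, the podoplanin gene, was at 361 against 11.8 CPM (4.93), Nrp2, a co-receptor of Flt4, at 565 against 23.2 CPM (4.61), and Tbx1, a transcription factor, at 209 against 0.844 CPM (7.95). Pdpn is also a gene of alveolar type 1 cells. Foxc2, a transcription factor of lymphatic valves, had UMIs in 5 of the 28 cells and Cldn11 in 6. Gata2, Ackr2 and Gja4 went the other way (-3.10, -2.29 and -2.21), and Sox18, a transcription factor shared with blood vessels, was at 188 and 223 CPM (-0.24).

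Of 15 blood endothelial genes, 0 were at least 2-fold higher and 12 at least 2-fold lower in the Ccl21a-rich cells, beside 9.11% and 19.1% of all genes. Vwf, which encodes von Willebrand factor, and Aplnr, the apelin receptor, had 0 UMIs there, which allows up to 15.7 CPM. At that level Vwf would be 24.4-fold and Aplnr 9.97-fold lower than in other endothelial-like cells. The exact intervals of their log2 ratios ended at -4.31 and -3.01. Car4, a gene of lung capillaries, was at 105 against 1418 CPM (-3.76). Pecam1 and Cdh5, pan-endothelial junction genes, each had UMIs in 22 of the 28 cells at 434 and 345 CPM, against 1163 and 1398 CPM. Kdr, the main VEGF-A receptor, was at 607 and 602 CPM (0.01). Of 8 genes of the lymphatic growth list 2 (Flt4 and Nrp2) were at least 2-fold higher and 3 (Vegfc, Figf and Tek) at least 2-fold lower. Flt4 and Nrp2 are also on the lymphatic marker list and were counted there. Of 4 platelet genes 0 were at least 2-fold higher and 2 at least 2-fold lower. The shares over all genes were again 9.11% and 19.1%. In the 2 high burden cells Fxyd6 had 21 UMIs, Nts 15, Nrp2 11, Maf 10, Pdpn 9 and Flt4 8, with UMIs of each in both cells.

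**Figure D3:**
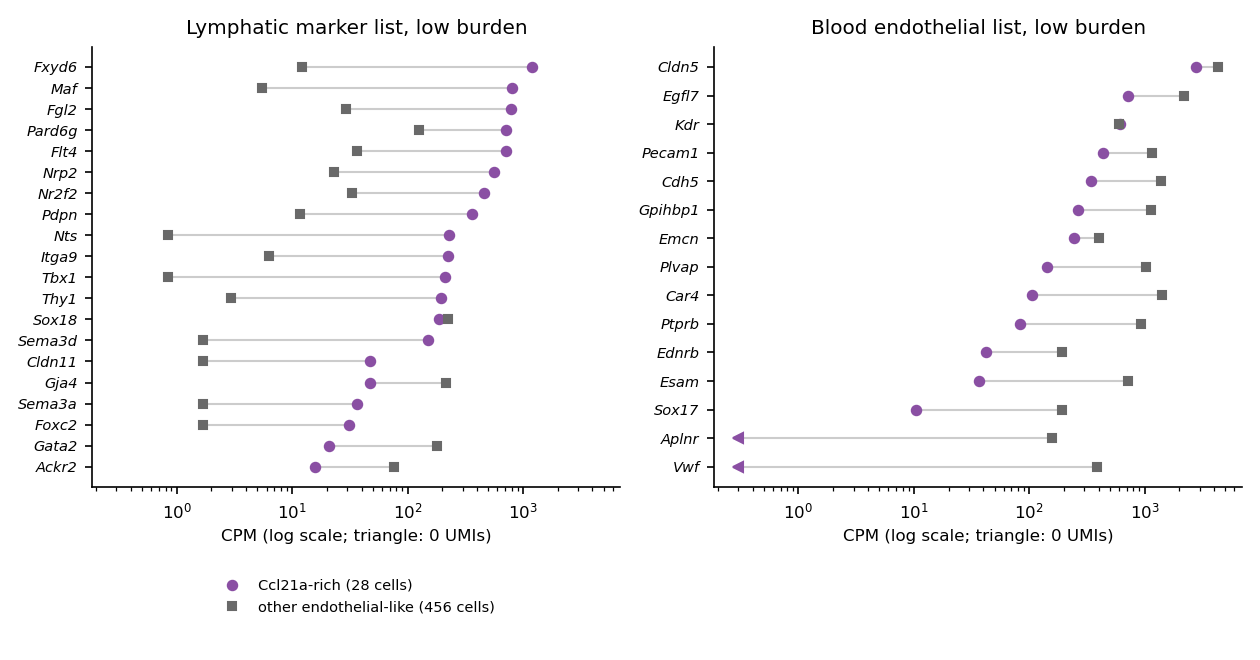
CPM (log axis) of genes of the lymphatic marker list (left) and the blood endothelial list (right) in the low burden library, summed over 28 Ccl21a-rich cells (circles) and 456 other endothelial-like cells (squares), with triangles for genes at 0 UMIs. Most lymphatic genes lie to the right in the Ccl21a-rich cells, such as Maf at 806 against 5.48 CPM, while Vwf and Aplnr are at 0.

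The 12 genes with the highest fold in all 58 low burden co-detected cells over the other endothelial-like cells were led by Mmrn1, Ccl21a and Prox1, which chose the cells. Reln, Maf and Fxyd6 followed among the genes of the Ccl21a-rich cells. Scgb1a1 and Scgb3a2, secretoglobins of airway club cells, and Ear2 and Ear10, of alveolar macrophages, were also among the 12. Lcn2, a secreted iron-carrier protein that is on the metastatic marker list, was another of the 12 and had UMIs in 89.3% of the Ccl21a-rich cells (539 against 2.53 CPM). Scgb and Ear genes were not among the 12 leading genes of the 28 Ccl21a-rich cells.

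The other co-detected cells looked different. Of the 30 low burden cells only 5 lay in endothelial-like clusters, and 7 lay in alveolar macrophage-like ones. Each held 1 UMI of Mmrn1 or Prox1 (22 cells with Mmrn1, 8 with Prox1), no Reln, and a median of 1 Ccl21a UMI. They were deeper, with a median of 7319 UMIs against 4105 in the Ccl21a-rich cells. Flt4 had 1 UMI in all 30 cells together and Pdpn 2. Of the 3 high burden cells 2 were metastatic-like and 1 epithelial-like, each with 1 UMI of Ccl21a and 1 of Prox1. Mmrn1 or Prox1 occurred without Ccl21a in 20 low burden and 21 high burden cells. Of these, 1 low burden cell of c13 held more than 1 of Mmrn1, Prox1 and Reln. After thinning every cell to 2000 UMIs, 33 low burden cells (1.33% [0.920, 1.87]) and 2 high burden cells (0.0659% [0.00799, 0.238]) met the rule.

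Low counts of Ccl21a were spread over all classes. Of low burden cells 42.9% held at least 1 Ccl21a UMI, and of the deeper high burden cells 19.6%. With every cell thinned to 2000 UMIs the shares were 22.7% [21.0, 24.4] and 2.97% [2.39, 3.63]. In cells with no UMI of Mmrn1, Prox1 or Reln, Ccl21a was at 119 CPM [113, 125] in the low burden library (1501 UMIs in 2384 cells) and at 13.6 CPM [12.6, 14.6] in the high burden library (691 UMIs in 3005 cells). Over the 7 named classes with at least 20 such low burden cells it ran from 113 CPM in stromal-like to 136 CPM in alveolar macrophage-like cells, a 1.21-fold range. Over 7 named classes in the high burden library it ran from 12.2 CPM in endothelial-like to 17.4 CPM in stromal-like cells, with metastatic-like cells (424 UMIs in 1388 cells) inside that range. The level lay within 1.43-fold between named classes of a library and 8.77-fold apart between libraries (log2 ratio -3.13 [-3.26, -3.00]). The Ccl21a UMIs of the Ccl21a-rich cells made up 1173 CPM of the low burden library and 23.9 CPM of the high burden one. The part of RNA free in the droplets in these low counts was not tested, and no expression is read from a single Ccl21a UMI.

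The proportion of the other genes to Ccl21a was compared inside and outside the Ccl21a-rich cells. For every 100 Ccl21a UMIs the Ccl21a-rich low burden cells held 2.67 [2.42, 2.94] Mmrn1 UMIs and the other cells 2.12 [1.45, 2.99]. For Reln the values were 0.706 [0.580, 0.852] and 0.900 [0.491, 1.51]. For Prox1 they were 0.449 [0.350, 0.568] and 1.16 [0.684, 1.83], from 70 and 18 UMIs, with intervals that did not overlap. The Mmrn1 and Reln intervals overlapped, and the low burden proportion of Prox1 was higher outside. In the high burden library Mmrn1 stood at 1.06 [0.561, 1.81] inside and 1.87 [0.992, 3.22] outside, from 13 UMIs each, Prox1 at 0.487 [0.179, 1.06] and 1.59 [0.788, 2.85], and Reln at 0.650 [0.280, 1.28] and 0.288 [0.0348, 1.04], all with overlapping intervals. For Lyve1 the low burden values were 0.924 and 39.3 and for Ccr7 0.0128 and 38.2, so that these 2 genes were far above that proportion in other cells.

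**Figure D4:**
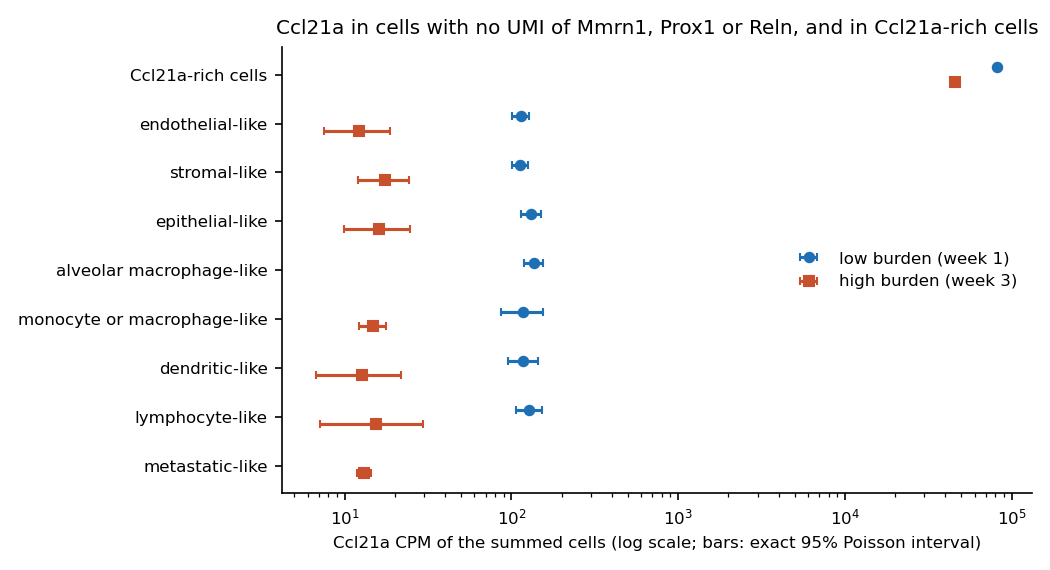
Ccl21a CPM (log axis) of cells without a UMI of Mmrn1, Prox1 or Reln, summed by class (rows), and of the Ccl21a-rich cells (top row), for low burden (circles) and high burden (squares), with exact 95% Poisson intervals. Classes with fewer than 20 cells are left out. Named low burden classes lie between 113 and 136 CPM and named high burden classes between 12.2 and 17.4 CPM, far under the Ccl21a-rich cells at 81506 and 45766 CPM.

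Much of Lyve1 lay in vessel cells that did not carry the other lymphatic genes. Cluster c13 without its Ccl21a-rich cells held 43.9% of low burden and 27.8% of high burden Lyve1 UMIs. In its 58 low burden cells Lyve1 was at 1160 CPM (332 UMIs in 45 cells), and in its 62 high burden cells at 85.6 CPM (98 UMIs in 27 cells), a log2 ratio of -3.76 [-4.10, -3.43]. The low burden level there was above the 753 CPM [635, 887] of the Ccl21a-rich cells, while the high burden level was under the 855 CPM [542, 1283] of the 2 Ccl21a-rich cells. The 23 low burden cells with at least 5 Lyve1 UMIs all held Vwf and had at most 2 Ccl21a UMIs each, with 1 UMI of Mmrn1, Prox1 or Reln in all. Of 9 such high burden cells 7 held Vwf. Of the other vessel genes of this cluster Vwf was at 2551 and 183 CPM, Prss23, a secreted protease gene, at 1377 and 419 CPM, Pecam1 at 1300 and 363 CPM and Plvap at 1083 and 349 CPM, while Gpihbp1 was at 311 and 356 CPM and Car4 at 112 CPM in both. Median depth there was 4392 and 15849 UMIs, and the part of these differences in the Lyve1 ratio was not tested. In c5, the largest endothelial-like cluster at low burden, Lyve1 was at 105 CPM in 242 cells and 98.7 CPM in 41 cells (log2 ratio -0.08 [-0.74, 0.54]).

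Lyve1 was sparse in the class called monocyte or macrophage-like, but not in every cluster with macrophage genes. In monocyte or macrophage-like cells it was at 4.47 CPM (2 UMIs in 115 cells) and 7.04 CPM (58 UMIs in 747 cells), a log2 ratio of 0.65 [-1.26, 3.73]. The direction turned with the clustering, to -3.86 [-4.62, -3.05] at resolution 0.5 and -3.49 [-4.39, -2.59] at resolution 2. Different clusters held most of this class in each library. At low burden it was c17, led by Lst1, Plac8 and Ifitm6, and at high burden c3 and c4, led by Ccl12 and C1q genes. Lyve1 stood at 11.2 CPM in c3, where 1 cell held 54.9% of its 51 UMIs. The unnamed cluster c20, led by the macrophage genes Saa3, Retnla and Marco, held 89 high burden cells with Lyve1 at 47.4 CPM [34.4, 63.6] in 14 cells. It also had Timd4, a receptor of resident macrophages, at 341 CPM. The mixed cluster c15, with macrophage genes such as C1qa at 3693 and 3150 CPM, had Lyve1 at 57.2 CPM (21 UMIs) in 80 low burden cells and 0 UMIs in 41 high burden cells. Of 7 resident macrophage genes with enough UMIs in monocyte or macrophage-like cells, 5 were at least 2-fold higher at high burden, beside 15.2% of all genes.

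Ccr7 was highest per UMI in dendritic-like and lymphocyte-like cells, and in the high burden library metastatic-like cells, at a low level, held 144 of its 447 UMIs. In dendritic-like cells it was at 206 CPM (170 UMIs) at low and 177 CPM (182 UMIs) at high burden, a log2 ratio of -0.22 [-0.53, 0.09], and 0.67 [-0.21, 1.46] at clustering resolution 2. Most of it came from few cells: 6 of 108 low burden cells (5.56% [2.07, 11.7]) with 13 to 40 UMIs held 92.4% of these UMIs, and 13 of 132 high burden cells (9.85% [5.35, 16.3]) with 5 to 30 UMIs held 95.1%. In these cells Fscn1, the fascin gene of mature dendritic cells, was at 5180 and 1723 CPM, against 7.47 and 9.09 CPM in dendritic-like cells without Ccr7. Ccl22, a chemokine of mature dendritic cells, was at 2447 and 2116 CPM against 8.96 and 46.6 CPM, and Ccl17 at 1653 and 5629 CPM against 390 and 374 CPM. Of 11 mature dendritic genes in dendritic-like cells 1 was at least 2-fold lower and 2 at least 2-fold higher at high burden, beside 5.89% and 7.31% of all genes.

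In lymphocyte-like cells Ccr7 was lower at high burden, at 263 CPM (270 UMIs in 242 cells) and 62.4 CPM (37 UMIs in 76 cells), a log2 ratio of -2.07 [-2.61, -1.57]. In cluster c9, led by T cell genes, it was at 302 and 55.6 CPM (-2.44 [-3.25, -1.73]), with UMIs in 48.9% of 184 and 26.5% of 34 cells. In cluster c18, led by B cell genes, it was at 179 and 69.6 CPM (-1.36 [-2.17, -0.61]), with UMIs in 39.7% of 58 and 28.6% of 42 cells. Beside 4 B cell markers c18 carried 3 markers each of the T, dendritic and monocyte or macrophage lists, so its values are not of B cells alone. Thinned to 2000 UMIs, 32.6% [26.8, 38.9] of low burden and 13.2% [6.49, 22.9] of high burden lymphocyte-like cells held Ccr7. Of 6 genes of naive lymphocytes, 5 were at least 2-fold lower in lymphocyte-like cells at high burden and 0 at least 2-fold higher, beside 10.8% of all genes at least 2-fold lower, with a median log2 ratio of -1.56 against -0.03 over all genes. Metastatic-like cells had Ccr7 at 4.37 CPM, like the 4.37 CPM of monocyte or macrophage-like cells and the 3.55 CPM of stromal-like cells in the same library.

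Ccl19, the other ligand of Ccr7, was found mainly in stromal-like cells. Over all kept cells it had 99 UMIs (7.45 CPM) at low and 108 UMIs (2.10 CPM) at high burden, a log2 ratio of -1.83 [-2.24, -1.42], and stromal-like cells held 88 and 81 of these, of which 1 high burden cell held 97.5%. Ackr4, a receptor that removes Ccl19 and Ccl21, had 82 and 32 UMIs (-3.31 [-3.95, -2.71]). Of 5 entries on the list of Ccr7 ligands and scavengers, which includes Ccl21a itself, these 3 had enough UMIs and all were at least 2-fold lower, beside 29.5% of all genes, and 2 of 3 without metastatic-like cells, beside 21.6%. In stromal-like cells alone Ccl19 was at 29.6 and 41.1 CPM (0.47 [0.02, 0.92]).

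**Figure D5:**
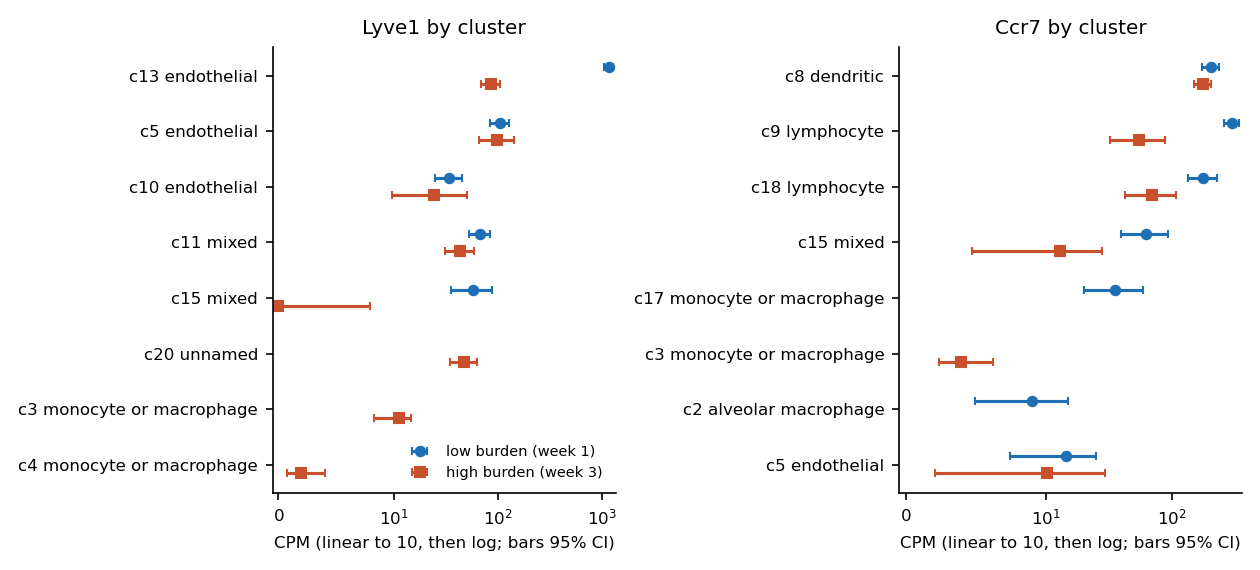
CPM of Lyve1 (left) and Ccr7 (right) in selected clusters (rows) without the Ccl21a-rich cells, for low burden (circles) and high burden (squares), on an axis that is linear to 10 CPM and logarithmic above, with exact 95% Poisson intervals. Clusters with fewer than 20 cells of a library have no point for it. Lyve1 in c13 stands at 1160 against 85.6 CPM and Ccr7 in the dendritic cluster c8 at 206 against 177 CPM.

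Over all kept cells 17 of 21 genes of the lymphatic marker list were at least 2-fold lower at high burden and 0 at least 2-fold higher, beside 29.5% and 11.9% of all genes, with a median log2 ratio of -2.44. Nrp2 was among the 4 others, at 43.4 and 62.7 CPM (0.53 [0.40, 0.66]). Within endothelial-like cells without co-detected cells 7 of 14 such genes were at least 2-fold lower and 3 at least 2-fold higher, beside 10.4% and 8.69% of all genes. Again over all kept cells, of 9 genes of the lymphatic growth list with enough UMIs 7 were at least 2-fold lower and 0 at least 2-fold higher. Beside these stand 29.5% and 11.9% of all genes. Figf, which encodes VEGF-D, was at 111 and 12.7 CPM (-3.12 [-3.26, -2.99]) and Vegfc at 31.3 and 12.3 CPM (-1.34 [-1.52, -1.16]). Their receptor Flt4 was at 22.2 and 2.53 CPM (-3.14 [-3.45, -2.83]). The angiopoietin receptor Tek was at 121 and 13.2 CPM (-3.20), its partner Tie1 at 73.9 and 9.73 CPM (-2.92), and the ligands Angpt1 at 35.0 and 4.12 CPM (-3.09) and Angpt2 at 19.8 and 8.47 CPM (-1.22). The platelet list, whose genes can mark platelets attached to vessel cells, had 6 of 7 genes at least 2-fold lower and Pf4, which macrophages also make, higher. This too is over all kept cells, beside 29.5% of all genes lower and 11.9% higher.

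Across 2473 kept low burden cells, Pearson correlations of log counts with 14119 genes placed the lymphatic genes next to each other. For Ccl21a the closest genes were Mmrn1 (r = 0.64), Reln (0.55) and Sh3gl3 (0.48). For Mmrn1 they were Reln (0.80), Prox1 (0.64) and Ccl21a, and for Prox1 Mmrn1, Reln (0.58) and Apold1 (0.55). For Reln they were Mmrn1, Prox1 and Sh3gl3 (0.58). For Lyve1 they were Vwf (0.57), Cytl1 (0.55) and Slc6a2 (0.40), none of which is on the lymphatic list, and for Ccr7 they were Cd3d (0.47), Cd3g (0.43) and Lef1 (0.42). The cells share 1 library and differ in depth, and the values are given as a description.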

How the data were processed

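Dissociated lungs of 1 low burden and 1 high burden mouse were profiled with the 10x Genomics platform. The authors processed reads with Cell Ranger 2.0.2 on mm10 with the PYMT sequence added, and deposited raw UMI counts per gene and cell. An aggregation of libraries is named in the methods, but not whether it came before these counts. The annotation release is not given in the sources used here. Sample titles gave the groups. The 6 genes, the gene lists and the comparisons were chosen with earlier results of these data known.

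Cells with 1000 to 7000 genes and at most 10% mitochondrial UMIs were kept, which removed 195 low burden and 88 high burden cells. After scaling each cell to 10000 and a log transform, the 2000 most variable genes, without the 6 genes, the Ccl21 copies, the surfactant genes and PYMT, gave 10 principal components, 15 neighbours and Leiden clusters at resolution 1 (scanpy 1.11.5, leidenalg 0.10.2). Clusters were named from marker lists, and a marker counted when found in at least 25% of cells at 2-fold over the median of clusters after adding 10 CPM. A name needed 3 such markers, and clusters with 70% of another compartment's list were called mixed. This scoring was not fixed beforehand, and rebuilt names may differ from those of the study. Doublets were kept. Scrublet marked 37 low burden (1.50%) and 8 high burden cells (0.264%), a low yield, and 11 barcodes occurred in both libraries.

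UMIs were summed per library and class. Sums carry exact Poisson, shares exact binomial (Clopper-Pearson) and ratios exact conditional binomial 95% intervals, which cover counting error only, and a count of 0 allows up to 3 counts. Genes with at least 20 UMIs over both libraries entered the counts of genes past 2-fold. The ratio and its interval were tested on simulated data. Named genes were the 6 genes, from each list the 4 highest by UMIs and those at least 4-fold apart, the 12 highest by fold in co-detected cells (at least 20% of cells and 50 UMIs) and the 3 closest to each gene by correlation. Foxc2, Cldn11, Kdr, Sox18, Pecam1, Vegfc, Angpt2, Timd4, C1qa and the genes of cluster c13 were named after their values were seen. Some listed genes are counted but not reported here by name.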

Additional observations from a re-analysis of the deposited data

Results flagged for a closer look

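Some UMIs of the 6 genes lay in cells that the limits on genes and mitochondrial share removed, above the 3 counts that a count of 0 allows. In the low burden library the 195 removed cells held 120 Ccr7 UMIs (158 CPM [131, 189]), 94 Ccl21a UMIs (124 CPM [100, 152]) and 9 Lyve1 UMIs. Of the Ccr7 UMIs 115 lay in the 159 cells with under 1000 genes, at 223 CPM in those cells, and they made up 16.0% of all Ccr7 UMIs of that library. In the high burden library the 88 removed cells held 15 Ccl21a UMIs (11.9 CPM) and 4 Ccr7 UMIs (3.19 CPM). None of the removed cells was co-detected. Ccl21a in removed cells stood near its level in kept cells without Mmrn1, Prox1 or Reln (119 CPM and 13.6 CPM).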

How the results depend on the processing

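Each group has 1 library, so no value has a replicate error, and alternatives are set against the counting interval (counts against 1.5 times). Of 195 alternative values 149 stayed within these. Log2 ratios took the other sign in 8 of the 195, and in 1 of these, Ccl21a in co-detected cells, the reported interval had excluded 0. No paired analysis was possible because each group has 1 library. Over all kept cells, log2 ratios without metastatic-like cells were -3.99 (Ccl21a), -5.12 (Mmrn1), -3.24 (Prox1), -1.69 (Lyve1), -4.11 (Reln) and -1.46 (Ccr7). Median-of-ratios scaling, which shifts all ratios by 0.34, gave -4.77 for Ccl21a, -2.72 for Lyve1 and -2.04 for Ccr7, and thinning to 3000 UMIs gave -4.35, -2.32 and -1.59. Thinning to 3000 UMIs left out cells under that depth, 607 at low burden, some of them Ccl21a-rich, and 0 at high burden. All values given here for 3000 UMIs thus differ from the reported ones in the cells compared as well as in depth. Without the top cell of each library Ccl21a stood at -5.76 and Reln at -7.03, and without limits on cells Ccr7 stood at -2.58. In endothelial-like cells Ccl21a stood at -2.89 at resolution 0.5, -3.19 without co-detected cells, -4.50 without the top cells and -2.90 under median-of-ratios scaling, and Reln at -5.89 without the top cells. In co-detected cells, of which the high burden library had 5, Ccl21a (-1.35) stood at -0.83 with at least 10 Ccl21a UMIs, -0.78 with Pecam1 or Cdh5, -2.56 without the top cells and 0.0016 when thinned to 3000 UMIs. Thinning also gave -1.29 for Mmrn1, 0.56 for Prox1, 0.98 for Lyve1 and -0.29 for Reln there. Lyve1 stood at 0.18 with at least 10 Ccl21a UMIs and -1.73 without the top cells, and Reln at -3.87. At resolution 2 Ccr7 in dendritic-like cells stood at 0.67 (105 and 15 UMIs), and Lyve1 in monocyte or macrophage-like cells stood at -3.86 at resolution 0.5, -3.49 at resolution 2 and -0.34 with the 6 genes kept for clustering. The share of co-detected low burden cells was 1.58% with at least 2 Ccl21a UMIs, 1.13% with at least 10, 1.09% with at least 2 of Mmrn1, Prox1 and Reln, 1.09% with Prox1 alone, and 1.33% and 1.66% when thinned to 2000 and 3000 UMIs. Of endothelial-like and co-detected cells it was 11.3% at low and 3.68% at high burden. The causes of these moves were not tested. List counts stayed within 1.5 times under the alternatives run. Ccl21a levels by class in cells without Mmrn1, Prox1 or Reln left their counting interval in 4 alternative values and stayed within it in 35. The 5 high burden co-detected cells limit every comparison within such cells.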
